A study of Mus musculus with 12 samples.

Results

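The transcripts described here are the classical complement components C1qa, C1qb, C1qc, C4a and C3 and the receptor gene C3ar1, as measured in the hippocampus of 5xFAD mice and non-transgenic littermates. The 6 genes were chosen by symbol from a table of 756 genes of the nCounter Mouse Neuroinflammation panel, a hybridisation assay that counts a coloured barcode for each captured transcript, without amplification. All 6 have a row of their own, and all 6 were tested with the rest of the 695 genes whose mean normalized count over the mice was 20 or more. The mice, which the labels describe as male, fell into 3 groups of 4. N-Tg Vehicle mice were non-transgenic and Tg Vehicle mice were 5xFAD, and both drank 1% polyethylene glycol. Tg-TPPU mice were 5xFAD and drank TPPU at 3 mg/kg in that vehicle. Dosing began at the age of 2 months and lasted 2.5 months, to an age of 4.5 months. Non-transgenic mice given TPPU were not analysed here. 5xFAD mice are a transgenic model of amyloid disease whose transgenes are driven by the neuronal Thy1 promoter, and the transgenes themselves were not analysed here. TPPU inhibits soluble epoxide hydrolase, which turns epoxy fatty acids into diols.

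The classical pathway starts when C1q binds an activating surface, such as an antibody complex, amyloid or a synapse. C1q is built of A, B and C chains, each with its own gene. Its associated proteases cleave C4 and C2, and the enzyme so formed cleaves C3, whose larger fragment coats the target for phagocytes while the smaller one, C3a, signals through the receptor C3aR. In the brain, microglia are the main source of C1q and carry C3aR, and C3 and C4 can also come from astrocytes. In mouse models of amyloid disease, C1q and C3 are known for marking synapses that microglia then remove.

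3 facts about the mice bear on the values below. In 6 mice, 2 from every group, normalized counts of the Y-linked genes were 366 to 518 (Uty) and 306 to 369 (Kdm5d). In the other 6 they were 15.2 to 33.5 and 14.2 to 22.8, which goes against the male label of those mice. Transthyretin (Ttr), a choroid plexus transcript, was high in N-Tg Vehicle mouse 4 (16461) and Tg Vehicle mouse 1 (4269.7), against 77.1 to 284 in the others. Tg-TPPU mouse 2 was the lowest of its group for each of the 6 genes, and for 5 of the 6 it lay inside the range of the non-transgenic mice. Its summed count over the 10 measured genes of a microglial marker list was 6362, beside 5486 to 6308 in non-transgenic mice and 8984 to 13265 in the other Tg-TPPU mice. Results are therefore given with and without these mice where a call or a direction changes.

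C1q transcripts were several-fold higher in vehicle-treated 5xFAD mice than in non-transgenic mice, with TPPU-treated mice spread from the non-transgenic range, or below it for C1qb, to the vehicle-treated range for C1qa. C1qa, which encodes the A chain, stood at 1186, 931, 928 and 903 normalized counts in N-Tg Vehicle mice 1 to 4. It stood at 2854, 4613, 7556 and 4021 in Tg Vehicle mice, and at 2334, 941, 4148 and 2847 in Tg-TPPU mice. No vehicle-treated 5xFAD mouse was as low as a non-transgenic one for C1qa, as in 150 of the 695 tested genes (21.6%). The vehicle-treated 5xFAD mice differed 2.65-fold among themselves for C1qa, and the TPPU-treated mice overlapped both other groups. C1qb, for the B chain, stood at 1584, 1265, 1189.9 and 1192 in non-transgenic mice, at 2994, 4935, 4473 and 6121 in Tg Vehicle mice, and at 2861, 924, 2649.6 and 1494 in Tg-TPPU mice. Each TPPU-treated mouse lay below each vehicle-treated 5xFAD mouse for C1qb, and mice 2 and 4 lay within or below the non-transgenic range. C1qc, for the C chain, stood at 1542, 1134, 1157 and 1235 in non-transgenic mice, at 5698, 5149.5, 5995 and 5765 in Tg Vehicle mice, and at 2897, 1467, 3359.55 and 3268 in Tg-TPPU mice. The Tg Vehicle values of C1qc were tightly grouped, with a coefficient of variation of 6.34% beside 42.0% for C1qa and 27.9% for C1qb. All 4 TPPU-treated mice lay below that group, as for C1qb, in 30 of the 695 tested genes (4.32%).

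**Figure D1:**
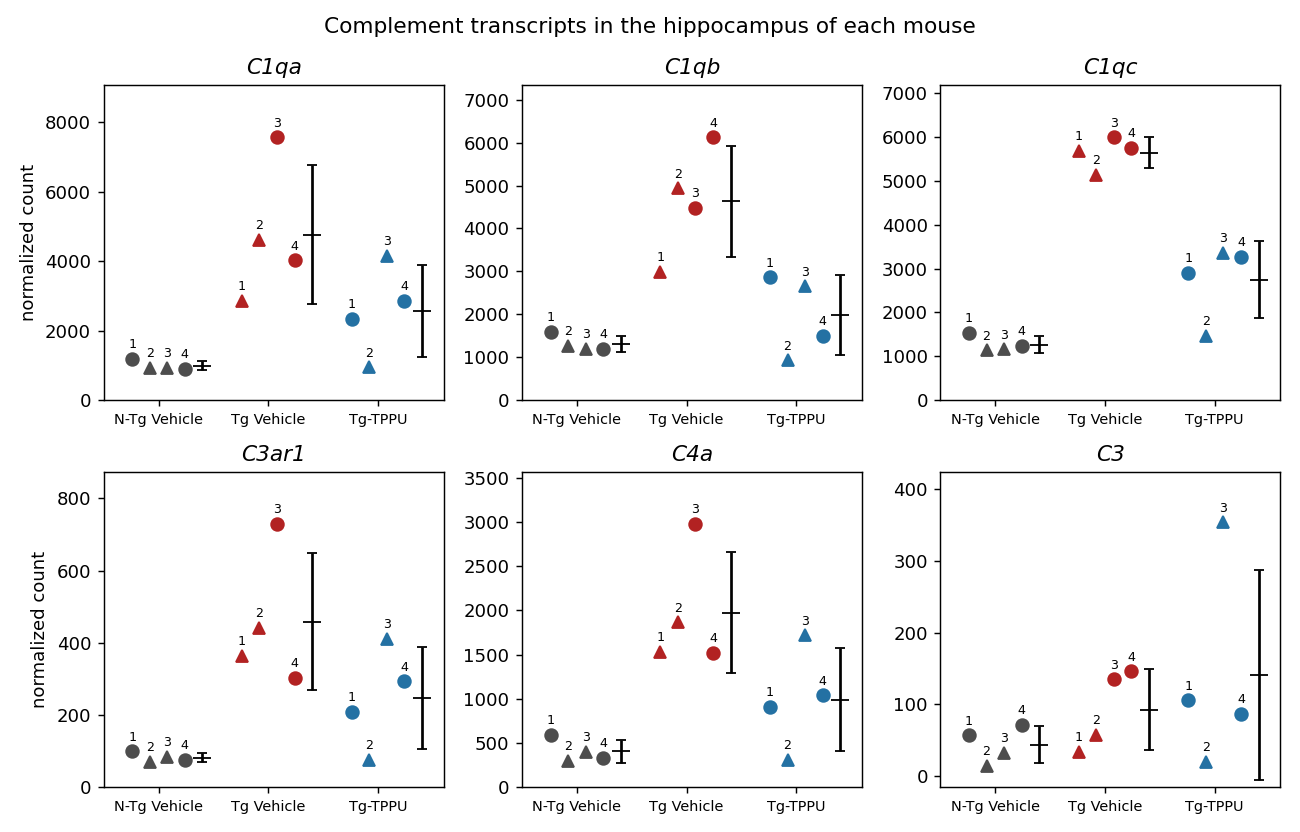
Normalized counts (linear axes) of the 6 genes in each mouse, by group. Numbers are mouse numbers, circles mice with high and triangles mice with low Y-linked counts, and bars to the right of each group the mean ± SD of 4 mice. C1qb and C1qc are lower in every Tg-TPPU mouse than in every Tg Vehicle mouse, as in 30 of the 695 tested genes (4.32%). Tg-TPPU mouse 2 is the lowest of its group in all 6 panels.

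C3ar1, the gene of the C3a receptor, stood at 98.4, 68.5, 82.4 and 74.4 normalized counts in N-Tg Vehicle mice, at 363, 441, 728 and 301 in Tg Vehicle mice, and at 208, 75.8, 411 and 292 in Tg-TPPU mice. Every vehicle-treated 5xFAD mouse lay above every non-transgenic mouse, as in 150 of the 695 tested genes (21.6%). The TPPU-treated mice ranged from a non-transgenic value to one between the vehicle-treated mice. C4a, a C4 gene, stood at 591, 296, 392 and 328 in non-transgenic mice, at 1530.1, 1865, 2978 and 1523 in Tg Vehicle mice, and at 903, 301, 1716 and 1038 in Tg-TPPU mice. Again the genotypes lay apart, with Tg-TPPU mouse 3 among the vehicle-treated 5xFAD mice and mouse 2 among the non-transgenic ones. RefSeq (GRCm38.p6) lists C4a as a transcribed pseudogene and C4b as the protein-coding C4 gene. The paralogs are nearly identical and the specificity of the probe is not stated, so the C4a row may hold counts from both.

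C3, the component on which the complement pathways meet, had the lowest counts of the 6, and its groups overlapped. It stood at 56.6, 13.9, 32.3 and 71.6 normalized counts in N-Tg Vehicle mice, at 33.1, 56.8, 135 and 146 in Tg Vehicle mice, and at 105, 19.2, 353 and 86.5 in Tg-TPPU mice. Tg-TPPU mouse 3 had the highest value of the 12. The lowest value came from 14 counted probes, with an exact 95% Poisson interval of 7.65 to 23.5 counts, which covers counting error only. The lower C3 values lay in the range of the Uty and Kdm5d probes in mice with low counts of both, and no source used here states whether background was subtracted. The C3 ratios given below are therefore no firm measure of the size of a change.

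In the comparison of genotypes, which asks what the transgenes do without drug, 5 of the 6 genes rose and C3 was not called. C1qa rose 4.56-fold (95% interval 2.51 to 8.26, limma adjusted p = 0.00234), and C1qb rose 3.45-fold (2.11 to 5.64, adjusted p = 0.00234 by limma). C1qc rose 4.49-fold (3.21 to 6.27, limma adjusted p = 0.000366). C3ar1 rose 5.35-fold (2.75 to 10.4, limma adjusted p = 0.00234) and C4a 4.89-fold (2.50 to 9.55, limma adjusted p = 0.00284). C3 had a ratio of 2.09 with an interval of 0.622 to 6.99 (limma adjusted p = 0.425). Folds are those of log2(normalized count + 1), and intervals are not adjusted for the number of genes. Over the whole panel 130 of 695 genes were called higher (18.7%) and 0 lower (102 higher and 88 lower after centring each mouse on its median, 80 and 104 after quantile normalization, each with the same 5 members higher), and 150 (21.6%) had all 4 Tg Vehicle mice above all 4 non-transgenic mice, among them the same 5 genes. The median log2 change of the 6 genes was 2.18, beside 0.13 for all tested genes. In bulk tissue, more cells of a type and more RNA per cell cannot be told apart.

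The genotype estimates of the 5 called genes were above 0 in mice of either Y-linked status, with 2 mice a group in each. In mice with high Y-linked counts the log2 change was 2.41 for C1qa, 1.93 for C1qb, 2.09 for C1qc, 2.44 for C3ar1 and 2.27 for C4a. In mice with low counts it was 1.96, 1.65, 2.24, 2.40 and 2.31 in the same order. Limma's test of the difference between these changes gave adjusted p values of 0.942 to 0.987 for the 6 genes. With 2 mice a group in each, that test cannot show that the changes are alike in size. A limma fit on the 6 mice with low Y-linked counts alone called 0 of 695 genes, and the adjusted p of the 5 genes was 0.222 to 0.269 there. The fit on the 6 mice with high counts called 109 genes higher (15.7%), all 6 members among them, with C3 at 1.13 (limma adjusted p = 0.0276), and 10 lower (1.44%). Without the mice with high Ttr the same 5 members were called, at log2 changes of 1.94 to 2.47, beside 122 genes higher over the panel (17.6%).

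The comparison of TPPU with vehicle in 5xFAD mice asks what the drug does to these transcripts. Its estimates were below 0 for the 5 genes that the genotype had raised, and limma called none of them. Both comparisons use the same Tg Vehicle mice, so a high value in those mice raises the genotype estimate and lowers this one. The opposite signs are therefore no independent support for a reversal. C1qb was at 0.401 times the vehicle level (95% interval 0.245 to 0.656, limma adjusted p = 0.13) and C1qc at 0.463 times (0.331 to 0.648, limma adjusted p = 0.117), the smallest p of all 695 genes. C4a was at 0.44 times the vehicle level (0.225 to 0.86, limma adjusted p = 0.212). C1qa was at 0.505 times (0.278 to 0.916, limma adjusted p = 0.218) and C3ar1 at 0.483 times (0.249 to 0.938, limma adjusted p = 0.241). C3 had a ratio of 1.14 with an interval of 0.341 to 3.83 (limma adjusted p = 0.915), and its estimate turned below 0 in mice with high Y-linked counts (-0.55), beside 0.93 in those with low counts. Limma called 0 of 695 genes (0%) in either direction, while 126 passed 0.05 before adjustment, 119 of them lower. The 4 TPPU-treated mice lay fully below the 4 vehicle-treated mice in 30 genes (4.32%), C1qb and C1qc among them, and fully above in 4 (0.576%). The median log2 change was -1.08 over the 6 genes and -0.12 over all tested genes.

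Which TPPU-treated mice entered the fit decided whether C1qb and C1qc were called. Without Tg-TPPU mouse 3, the highest of its group for 5 of the 6 genes, limma called both lower (C1qb adjusted p = 0.0374 and C1qc adjusted p = 0.0322), among 39 genes called lower (5.61%). Without Tg-TPPU mouse 2 the estimate for C1qc was smaller, at -0.83 log2, yet called (limma adjusted p = 0.00948), and it was the only called gene of the panel (0.144%). In the other 6 fits without 1 mouse neither gene was called. Tg-TPPU mice 2 and 3 stood out by their values of these same genes, so the calls without them are no independent support. Within mice of high Y-linked counts the log2 change was -1.34 for C1qb and -0.93 for C1qc, and within those of low counts it was -1.30 and -1.29. The interaction with Y-linked status had a limma adjusted p of 0.995 for C1qb and 0.95 for C1qc. The fit on mice of high Y-linked counts called 2 genes lower (0.288%), neither of them a member.

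**Figure D2:**
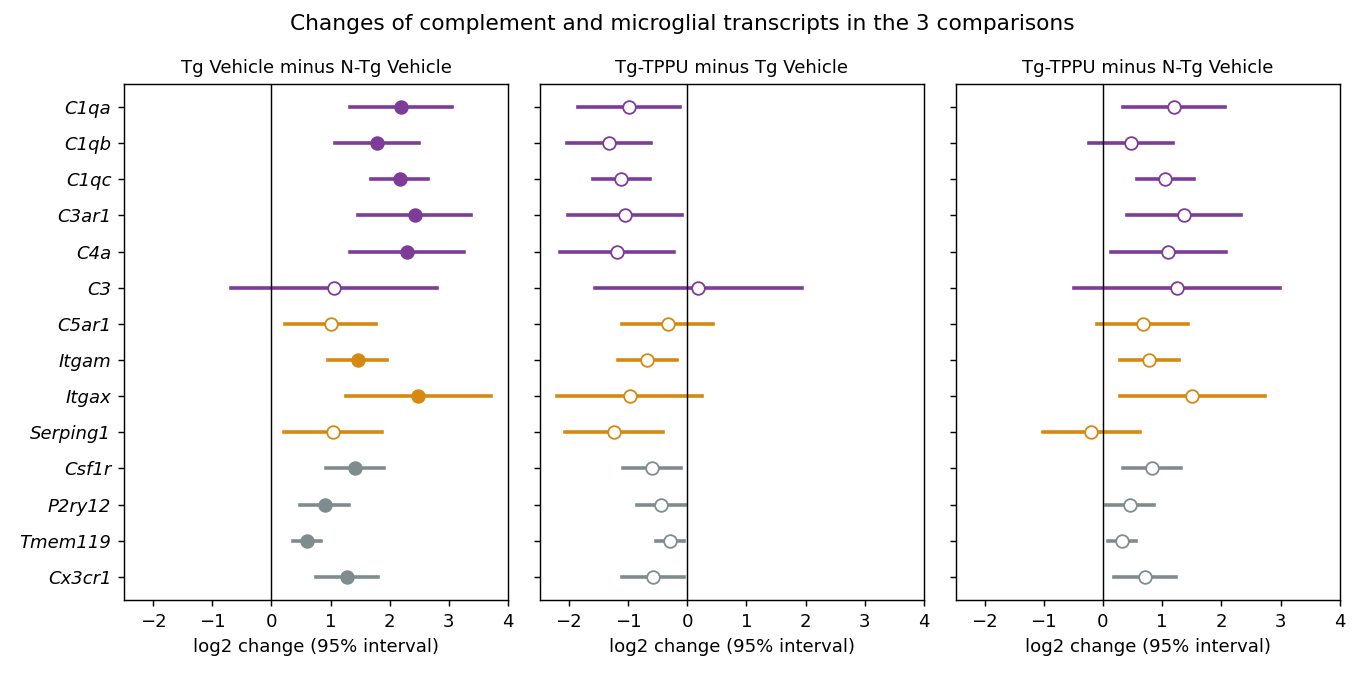
Log2 changes with unadjusted 95% intervals from limma for the 6 genes (purple), the 4 other tested complement genes (orange) and 4 microglial genes (grey) in the 3 comparisons. Filled points have an adjusted p under 0.05: they occur in the genotype comparison only, where C3, C5ar1 and Serping1 are open. The fitted change of Itgax rests on non-transgenic counts in the range of probes with little target and is no measure of its size.

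Set against the non-transgenic mice, the TPPU-treated 5xFAD mice had estimates above 0 for all 6 genes, with none called. C1qc was at 2.08 times the non-transgenic level (95% interval 1.49 to 2.91, limma adjusted p = 0.167), C1qa at 2.30 times (1.27 to 4.17, limma adjusted p = 0.175) and C3ar1 at 2.58 times (1.33 to 5.02, limma adjusted p = 0.175). C4a was at 2.15 times (1.10 to 4.20, limma adjusted p = 0.262) and C3 at 2.38 times (0.711 to 7.99, limma adjusted p = 0.566). C1qb was the nearest to the non-transgenic level, at 1.39 times (0.847 to 2.26, limma adjusted p = 0.625). Limma called 0 of 695 genes (0%) in either direction, while 102 passed 0.05 before adjustment, and 95 of these were higher. In 43 genes (6.19%), none of them a member, every TPPU-treated mouse lay above every non-transgenic one. Tg-TPPU mouse 2 decided this outcome. Without it limma called 59 genes higher (8.49%), including C1qc (log2 change 1.33, adjusted p = 8.99e-05), C3ar1 (1.85, adjusted p = 0.00386), C1qa (1.62, adjusted p = 0.00496) and C4a (1.59, adjusted p = 0.00841), while C1qb (0.79, adjusted p = 0.103) and C3 were not called. Mouse 2 was the lowest of its group for all 6 genes, so leaving it out had to raise their estimates. The calls without it are therefore no independent support. This comparison shares its mice with the other 2, so the 3 sets of values are not independent.

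The 3 C1q genes lie next to each other in the order C1qb, C1qc, C1qa on mouse chromosome 4, and the ratios of their counts varied less among the 4 non-transgenic mice than among the 4 mice of either 5xFAD group. A ratio within a mouse is free of the factor that scales that mouse. Probes differ in efficiency, so only the change of a ratio from mouse to mouse is read here. In N-Tg Vehicle mice 1 to 4 the log2 difference of C1qa minus C1qb was -0.42, -0.44, -0.36 and -0.40, an SD of 0.04. In Tg Vehicle mice it was -0.07, -0.10, 0.76 and -0.61, an SD of 0.56. In Tg-TPPU mice it was -0.29, 0.03, 0.65 and 0.93, again with an SD of 0.56. The ratio of C1qa to C1qb thus ranged 1.06-fold over the non-transgenic mice, 2.57-fold over the vehicle-treated and 2.34-fold over the TPPU-treated 5xFAD mice. The same held for the other pairs: the SD of C1qa minus C1qc was 0.07, 0.56 and 0.39 in the 3 groups, and that of C1qb minus C1qc was 0.08, 0.45 and 0.47. In single mice the chains diverged in different ways. Tg Vehicle mouse 1 had C1qc at 5698 with C1qa at 2854 and C1qb at 2994, Tg Vehicle mouse 3 had the highest C1qa of all mice without the highest C1qb, and Tg-TPPU mouse 4 had C1qb at 1494 beside C1qa at 2847. Counting error alone would give an SD of 0.06 or less for any of these differences in any group, but it leaves out the variation between mice. The non-transgenic SD of C1qa minus C1qb lay below that of counting error (0.059). The larger spread in 5xFAD mice was not particular to pairs of C1q genes. Against the mean of the C1q genes, the SD in the 3 groups was 0.12, 0.46 and 0.42 for C3ar1 and 0.28, 0.33 and 0.39 for C4a. For C3 it was 0.96, 0.76 and 1.04. The median SD of single genes over all 695 tested was 0.20, 0.27 and 0.21. The pattern was seen in these values, and the difference in spread was not tested.

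**Figure D3:**
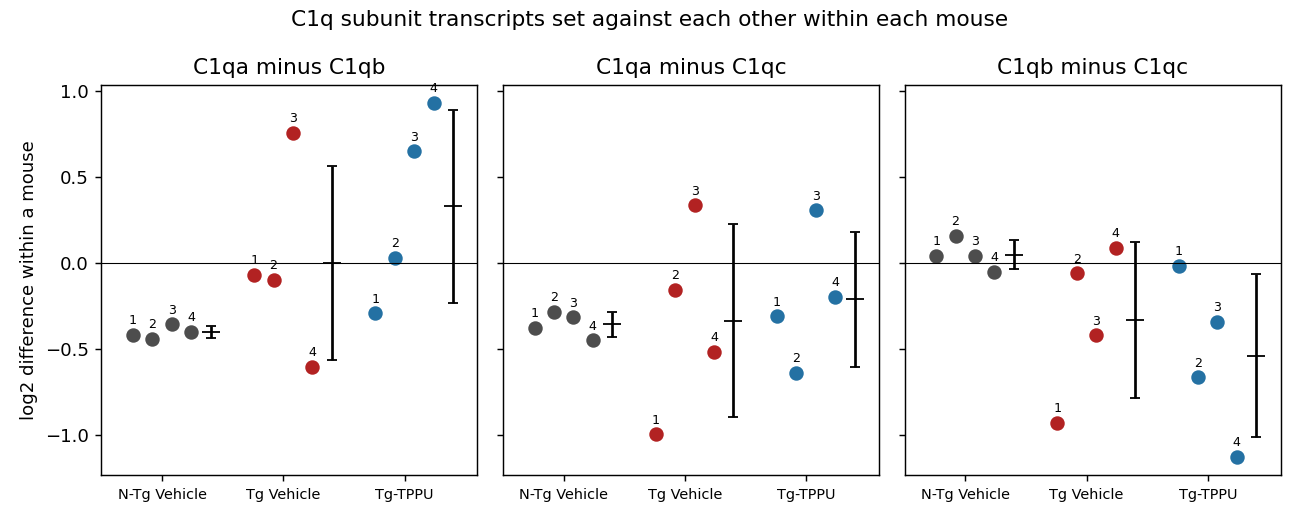
Log2 difference between the counts of 2 C1q genes within each mouse, by group, with mouse numbers and the mean ± SD of 4 mice. In each panel the ratio ranges 1.06-fold to 1.15-fold over the non-transgenic mice and 1.92-fold to 2.57-fold over the 5xFAD mice of either treatment.

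Differences between the means of these ratios did not pass a test. 6 within-mouse differences (the 3 pairs of C1q genes, and C3ar1, C4a and C3 each minus the mean of the C1q genes) were compared between groups in 3 comparisons, with an exact two-sided permutation test for each of the 18. The smallest p that 4 against 4 mice allow is 0.0286, so that adjusted values under 0.05 would need at least 11 of the 18 tests at that minimum. C1qa minus C1qb reached it between TPPU-treated and non-transgenic mice (0.33 ± 0.56 and -0.40 ± 0.04, SD, n = 4; exact p = 0.0286, adjusted 0.343), with C1qa higher against C1qb in 4 of 4 TPPU-treated mice than in any non-transgenic mouse. C3 minus the C1q mean was -4.95 ± 0.96 in non-transgenic, -5.93 ± 0.76 in vehicle-treated and -4.60 ± 1.04 in TPPU-treated 5xFAD mice (SD, n = 4). It was 1.33 log2 higher with TPPU than with vehicle (exact permutation p = 0.0857, adjusted 0.386). C3ar1 minus the C1q mean was 0.37 higher in vehicle-treated 5xFAD than in non-transgenic mice (exact p = 0.2, adjusted 0.45), and C4a minus the C1q mean 0.24 higher (exact p = 0.314, adjusted 0.629).

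The promoters of the adjacent genes C1qb and C1qc, which both rose with the genotype, and of C3ar1, a receptor gene on another chromosome that also rose, are printed to show what sequence lies at their starts. The RefSeq table (build GRCm38.p6) held a promoter for 4 of the 6 genes, C1qb, C1qc, C3 and C3ar1, each covering 250 bases before and 50 after the gene's start, on the gene's strand. C1qa and C4a had no entry. The sequences lie on the minus strand at chr4:136886151-136886450 for C1qb, chr4:136892865-136893164 for C1qc and chr6:122856108-122856407 for C3ar1, and capitals mark a motif match.
C1qb: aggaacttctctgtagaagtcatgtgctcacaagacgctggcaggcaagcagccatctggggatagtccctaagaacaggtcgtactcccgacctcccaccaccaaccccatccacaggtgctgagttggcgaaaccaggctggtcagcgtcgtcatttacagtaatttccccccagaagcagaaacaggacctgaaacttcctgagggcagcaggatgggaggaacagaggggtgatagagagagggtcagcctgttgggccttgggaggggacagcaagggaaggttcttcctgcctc
C1qc: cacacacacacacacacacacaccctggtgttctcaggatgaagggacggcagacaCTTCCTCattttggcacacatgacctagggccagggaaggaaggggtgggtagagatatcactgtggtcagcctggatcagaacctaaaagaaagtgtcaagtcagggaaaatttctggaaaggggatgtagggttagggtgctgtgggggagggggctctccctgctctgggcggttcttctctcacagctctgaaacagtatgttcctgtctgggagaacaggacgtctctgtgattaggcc
C3ar1: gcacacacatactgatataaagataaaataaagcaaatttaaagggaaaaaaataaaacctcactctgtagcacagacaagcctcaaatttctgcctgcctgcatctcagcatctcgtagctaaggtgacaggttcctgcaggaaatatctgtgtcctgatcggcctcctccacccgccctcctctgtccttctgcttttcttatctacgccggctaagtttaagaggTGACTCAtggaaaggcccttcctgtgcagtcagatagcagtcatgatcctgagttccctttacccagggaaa
3 motifs were searched on both strands, a PU.1 motif (GAGGAAG), the AP-1 motif (TGANTCA) and a STAT-type motif of the GAS kind (TTCNNNGAA). None of the matches overlapped. PU.1 is the factor that defines the myeloid lineage, AP-1 is a stress-responsive dimer, and STAT factors act downstream of interferon receptors. The C1qc promoter held a PU.1 motif on the opposite strand, starting at position -194 from the gene's start. On either strand and anywhere in the window, 13.6% of the 32851 promoters of the table held that motif. The C3ar1 promoter held an AP-1 motif starting at position -22, and 7.81% of promoters held that motif anywhere in the window. The C1qb and C3 promoters held no exact match to any of the 3. The C1qb promoter did hold GAGGAA, all but the last letter of the PU.1 motif, which is not capitalised above. The GAS-type motif, in 8.30% of all promoters, was in none of the 4. A match is a string of letters in this window and not evidence of a bound site.

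At the median, microglial markers moved in the direction of the complement genes, as did the reactive astrocyte genes given further below. That direction was not particular to these lists. Over all tested genes the median log2 change was 0.13 (genotype), -0.12 (TPPU against vehicle) and 0.06 (TPPU against non-transgenic). Astrocyte identity genes had medians of the same signs, as had 3 tested lymphocyte, neutrophil and monocyte genes (0.48, -0.38 and 0.28). Medians of neuronal, oligodendrocyte and endothelial genes did not all have these signs. Of the list of microglial genes, 10 of 12 were in the table and tested. Of these, 8 rose between the genotypes, beside 18.7% of all tested genes called higher, with a median log2 change of 1.09. Csf1r, whose product binds the growth factors microglia need, stood at 984 ± 108 in non-transgenic, 2659 ± 589 in vehicle-treated and 1812 ± 587 in TPPU-treated 5xFAD mice (SD, n = 4 mice a group). The fractalkine receptor gene Cx3cr1 stood at 1047 ± 68.8, 2641 ± 880.4 and 1777 ± 589.7. P2ry12, a receptor of resting microglia, rose 1.87-fold between the genotypes (limma adjusted p = 0.00459), and the surface protein gene Tmem119 rose 1.52-fold (limma adjusted p = 0.00234). With TPPU against vehicle, 0 of the 10 were called and their median was -0.49. The sum over the list was 5486 to 6308 counts in N-Tg Vehicle mice, 10440.2 to 16522 in Tg Vehicle mice and 6362 to 13265 in Tg-TPPU mice.

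To set complement against that level, each mouse was centred on the mean log2 count of the 10 microglial genes, which lowered every genotype change by 1.10 log2. The same 5 members were still called higher, among 48 genes of the panel (6.91%), beside 505 called lower (72.7%). The log2 change was 1.09 for C1qa (limma adjusted p = 0.00105), 0.68 for C1qb (adjusted p = 0.0209) and 1.06 for C1qc (adjusted p = 0.000523). It was 1.32 for C3ar1 (limma adjusted p = 0.000835) and 1.19 for C4a (adjusted p = 0.00153), while that of C3 turned to -0.042. Between TPPU and vehicle the centred change was -0.87 for C1qb, -0.74 for C4a, -0.66 for C1qc, -0.60 for C3ar1 and -0.54 for C1qa, with none called (limma adjusted p 0.19 to 0.192). Between TPPU-treated and non-transgenic mice C3ar1 was called higher (0.71, limma adjusted p = 0.0435), among 18 genes called higher (2.59%) and 364 lower (52.4%), and C1qb turned to -0.19. How far microglial number sets these changes was not tested.

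**Figure D4:**
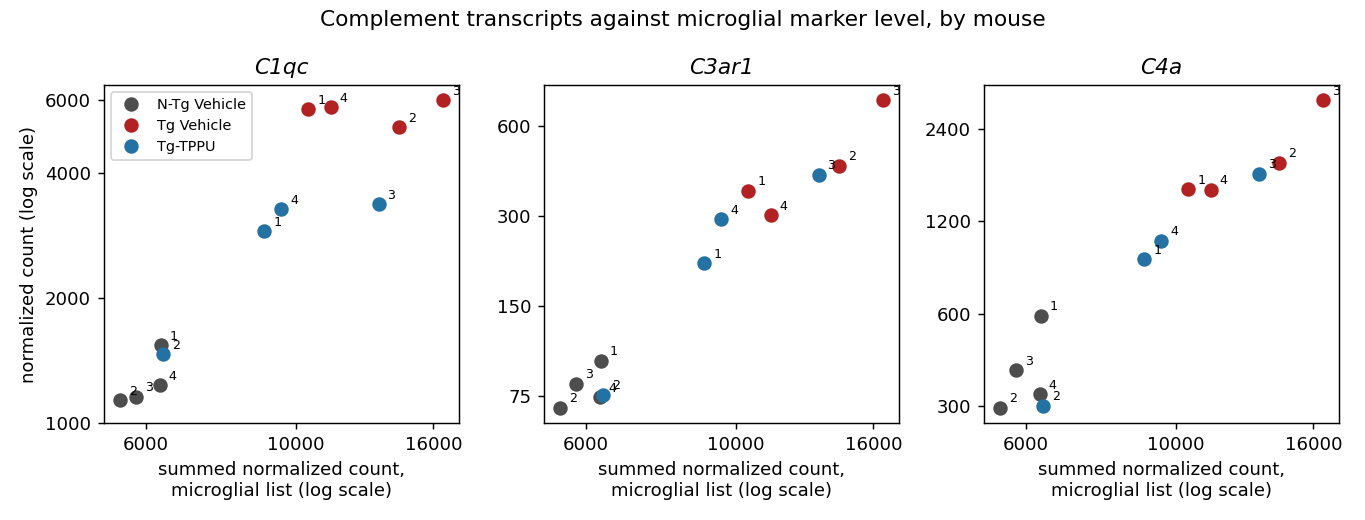
Normalized count of C1qc, C3ar1 and C4a (log axis) against the summed count of 10 microglial marker genes (log axis), 1 point per mouse with its mouse number. The TPPU-treated mice all lie below the vehicle-treated 5xFAD mice for C1qc (1467 to 3359.55 against 5149.5 to 5995), as in 30 of the 695 tested genes (4.32%). For C3ar1 and C4a Tg-TPPU mouse 3 (411 and 1716) lies inside the vehicle-treated range. The centred changes with TPPU are -0.66 for C1qc, -0.60 for C3ar1 and -0.74 for C4a.

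Of 30 other complement genes listed, 5 were in the table and 4 were tested. In the genotype comparison 2 of the 4 rose and 0 fell, beside 18.7% of all tested genes called higher. Itgam, for CD11b of complement receptor 3, rose from 161 ± 23.8 to 452 ± 119 normalized counts (SD, n = 4), 2.74-fold (limma adjusted p = 0.00204). Itgax, for CD11c of complement receptor 4, rose from 15.9 ± 2.29 to 111 ± 60.1 (n = 4; limma adjusted p = 0.0075). Its non-transgenic counts lay in the range of the Y-linked probes in mice with low counts of them, so no fold is given. Itgax passed the minimum mean of 20 only through its counts in 5xFAD mice, so its call adds no support. The C5a receptor gene C5ar1 stood at 42.3 ± 8.37 and 90.6 ± 35.2 (n = 4; limma adjusted p = 0.07). Serping1, which encodes the inhibitor of the C1 proteases, stood at 165 ± 51.2 and 354 ± 154 (n = 4; limma adjusted p = 0.0789). C6, a component of the membrane attack complex, lay under the minimum, with means of 9.80, 9.53 and 10.1 in the 3 groups.

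With TPPU, none of these 4 genes was called against vehicle. Serping1 was at 0.426 times the vehicle level (95% interval 0.24 to 0.755, limma adjusted p = 0.175) and at 0.874 times the non-transgenic level (0.493 to 1.55, limma adjusted p = 0.878), an interval on both sides of the non-transgenic level. Itgam was at 0.628 times the vehicle level (0.444 to 0.887, limma adjusted p = 0.212), Itgax stood at 55.7 ± 36.1 (SD, n = 4; limma adjusted p = 0.377) and C5ar1 was at 0.795 times (0.467 to 1.36, limma adjusted p = 0.623). For Itgam each TPPU-treated mouse still lay above each non-transgenic mouse, as in 43 genes of the panel (6.19%). The same held for Itgax, though narrowly, with a lowest TPPU-treated count of 18.1 against a highest non-transgenic count of 17.9.

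Markers of other cells that can make complement were measured beside these genes. Of 8 tested reactive astrocyte genes 3 rose between the genotypes (median log2 change 1.14), beside 18.7% of all tested genes called higher. Their median was -0.69 between TPPU and vehicle and 0.33 between TPPU-treated and non-transgenic mice, with 0 called. The sum over the 10 in the table was 1470 to 2447 counts in N-Tg Vehicle mice, 3677 to 6995 in Tg Vehicle mice and 1874 to 3529 in Tg-TPPU mice. The Tg-TPPU sums thus all lay below the Tg Vehicle sums, unlike those of the microglial list. Of 6 tested astrocyte identity genes 1 rose between the genotypes, again beside 18.7% of all tested genes. Their medians were 0.37, -0.21 and 0.07 in the 3 comparisons. Their sums overlapped, at 16999 to 21483, 21128 to 29614 and 18144 to 23693 in the 3 groups. Of 12 neuronal genes 0 were called in any comparison (medians -0.04, 0.13 and 0.08), and of 9 oligodendrocyte genes 0 (medians -0.41, 0.14 and -0.23). The 4 endothelial genes tested had medians of 0.19, -0.25 and -0.09 with 0 called. Summed counts of 10 lymphocyte, neutrophil and monocyte genes were low, at 95.9 to 144 in N-Tg Vehicle mice, 142 to 239 in Tg Vehicle mice and 141 to 152 in Tg-TPPU mice. The 1 border macrophage gene in the table stood at 23.9 to 60.1, 27.4 to 109 and 35.2 to 43.2. None of these markers was listed at 0 in a mouse. The part of these cells in the complement values was not tested.

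Genes whose profile lay nearest to each member were taken from the other 750 genes of the table, by the root mean square difference of log2 values over the 12 mice, each gene set against its non-transgenic mean. C3ar1 was nearest to Ctss, the lysosomal protease cathepsin S (0.15), then to the lymphocyte receptor family gene Ly9 (0.19) and to Cd84 of the same family (0.24). C4a was also nearest to Ctss (0.21), then to Ly9 (0.24) and to Fcer1g, the shared chain of Fc receptors (0.26). C1qa was nearest to the inhibitory receptor gene Lag3 (0.18), then to Ly9 (0.20) and the transcription factor gene Irf8 (0.20), which is also in the microglial list. C1qc had Lag3 (0.30), Irf8 (0.32) and the Fc receptor gene Fcgr3 (0.32) nearest to it. C1qb lay farther from its neighbours, which were the kinase gene Btk (0.36), Ifitm3 (0.37) and the immunoproteasome gene Psmb8 (0.41), and C3 had no near neighbour, with St8sia6 (0.81), Csf3r (0.82) and Ptpn6 (0.90). Median distances to all 750 genes were 1.11 to 1.65. Among the members C1qa lay closer to C4a (0.21) and C3ar1 (0.25), which are on other chromosomes, than to C1qc (0.36) or C1qb (0.62). These distances describe 12 mice in 3 groups and carry no test.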

How the data were processed

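Hippocampal RNA of 12 mice was counted with the nCounter Mouse Neuroinflammation panel. Per the labels' protocols, the authors normalized probe counts with the geometric mean of 10 housekeeping genes, none of which is in the table used here; the deposited signal values are linear. No source used here names the software or says whether background was subtracted. Every value was a whole multiple (within 0.01) of 1 factor per mouse, 0.871 to 0.993 in N-Tg Vehicle, 0.946 to 1.10 in Tg Vehicle and 1.03 to 1.09 in Tg-TPPU mice, so the scaling differed with group. The whole numbers summed to 1050334 to 1314362 counts per mouse, which set the counting precision; the labels number the samples of a group without saying that each is a separate mouse. They are called mice here, and p-values measure only the spread between these samples. Each group held samples of high and of low Y-linked counts, so not all samples of a group can be repeats of the same animal. Whether all are separate mice is not stated, so part of that spread may be technical.

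Values were tested as log2(value + 1) for the 695 of 756 genes with a mean of at least 20, in 1 limma 3.58.1 model (R 4.3.3) of the 3 groups with 9 residual degrees of freedom and a mean-variance trend; a gene was called where its p, adjusted by Benjamini-Hochberg over the 695, was under 0.05. Within-mouse differences were compared by exact permutation (SciPy 1.17.1). The fit was tested on simulated data. Of the symbols, 749 were current in RefSeq's table and 7 were synonyms. The named genes are the 6 members, every tested gene of the list of other complement genes, the 3 nearest genes to each member, 4 microglial genes and the checks Uty, Kdm5d and Ttr; C6, below the minimum, is named to complete its list. The members, lists and alternatives were chosen with earlier results of these data known. Figures were drawn with matplotlib 3.10.9.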

Additional observations from a re-analysis of the deposited data

Results flagged for a closer look

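Of 54 sets of 4 mice checked (1 gene in 1 group each), 3 had a highest mouse whose gap to the next exceeded 0.829 of the range of the 4, a limit that chance passes in about 1 of 20 sets. C1qa in N-Tg Vehicle mouse 1 stood at 1186 normalized counts, above 903 to 931 in the other 3 non-transgenic mice; that mouse was the highest of its group for 5 of the 6 complement genes. Ttr stood at 16461 in N-Tg Vehicle mouse 4 and at 4269.7 in Tg Vehicle mouse 1.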

How the results depend on the processing

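Results were recomputed with pseudocounts of 0.1 and 10, no filter, a minimum of 50, median centring, quantile normalization, centring on microglial genes, other variance models, the replicate number or Y-linked status as a block, only the groups compared, only mice of 1 Y-linked status, and without the mice with high Ttr or each mouse in turn. The edgeR and DESeq2 fits were not run: the deposited values are normalized, and the whole counts they imply were used for depth and counting error only. In the genotype comparison 5 members were called under each setting but 2: 0 with only mice of low Y-linked counts (0 genes called) and 6 with only mice of high counts; without 1 mouse, 97 to 148 genes and 5 members were called. Over the panel the genotype calls were 102 higher and 88 lower after median centring, 80 and 104 after quantile normalization, and 553 in all after centring on microglial genes. For TPPU against vehicle, 1 gene was called after centring on microglial genes, 2 with only mice of high Y-linked counts, and 0 to 39 genes and 0 to 2 members without 1 mouse. For TPPU against non-transgenic mice, 382 genes and 1 member were called after centring on microglial genes, and 0 to 60 genes and 0 to 4 members without 1 mouse. The estimate of C3 turned sign between the genotypes after centring on microglial genes (-0.042), and between TPPU and vehicle without the mice with high Ttr (-0.21), with only mice of high Y-linked counts (-0.55) and without 1 mouse (-0.47 to 0.91). That of C1qb between TPPU-treated and non-transgenic mice turned after centring on microglial genes (-0.19). Other causes of these moves were not tested.

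None of the 18 within-mouse differences was called; with 1 mouse or more left out the exact test could not give a call, so those fits say nothing on the calls. Small differences changed sign: C1qa minus C1qc was -0.20 to 0.24 (genotype), -0.10 to 0.35 (TPPU against vehicle, -0.10 without the mice with high Ttr) and -0.026 to 0.29 (TPPU against non-transgenic) without 1 mouse. For TPPU against vehicle C3ar1 minus the C1q mean was -0.12 to 0.25 and C4a minus it -0.19 to 0.10, and for TPPU against non-transgenic C3 minus it was -0.11 to 0.72. Deviations of mice with the same number correlated at -0.37 to 0.39, over 0.1 in 6 of 12 pairs, beside 10 of 36 pairs of different number; since not every same-number pair was over 0.1, the numbers were not taken as pairs; with the replicate number as a block 125 genes and 5 members were called between the genotypes and 0 in the other comparisons, and no member's call changed. 4 mice a group, and for C3 counts as low as 14, limit what could be detected.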
